A study of Mus musculus with 20 samples.

Results

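Myeloid C-type lectin receptors are 9 of the 34797 gene names on these arrays: Clec4n, Clec4d, Clec4e, Clec7a, Clec4a2, Clec4a3, Clec5a, Clec12a and Clec10a. They were taken by gene name as a family of pattern recognition receptors of macrophages, monocytes, neutrophils and dendritic cells. The set was selected on its log2 signals in the 5 groups of these same arrays, so the levels of the 9 receptors and their differences between groups are given as a description, without a test. The RNA came from the diaphragm, whose pleural face lines the cavity that received the fibers, of 20 female C57Bl/6 mice. The mice were 8 weeks old when 100 µL was injected into the pleural cavity, and tissue was taken 12 weeks later, with 4 mice in each of 5 groups. The control group received the 0.5% BSA/saline vehicle alone, and all fibers were given in the same vehicle. LFA mice received long amosite asbestos and SFA mice amosite shortened by grinding, at 25 µg per mouse. NTL mice received long and NTS mice short carbon nanotubes at 5 µg per mouse, so that LFA and NTL differ in dose as well as in material, and their values are set side by side without a comparison. Each array held the RNA of 1 mouse. The samples are whole pieces of diaphragm, in which more cells of a type and more RNA per cell cannot be told apart.

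C-type lectin receptors are surface proteins that bind sugars, lipids and products of damaged cells through a shared fold. Dectin-2 (Clec4n), MCL (Clec4d) and Mincle (Clec4e) carry no signaling motif of their own and couple to the FcRγ chain, whose ITAM recruits the kinase Syk. Dectin-1 (Clec7a) carries a motif of this kind in its own tail, and Clec5a uses the related adaptor DAP12. Syk then acts through the CARD9-BCL10-MALT1 complex on NF-kB and on cytokine genes, while receptors with an ITIM, such as DCIR (Clec4a2) and Clec12a, recruit phosphatases and oppose these signals. Clec10a (MGL1) binds galactose-type sugars and is a receptor of macrophages and dendritic cells.

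Each receptor was read by 1 probe of 60 bases, printed on 1 spot. The first 30 bases of each probe are shown, because the 9 readings rest on these sequences alone and the genes are related.
Clec4n: gtcttgccctggtttctttctatgaactgc
Clec4d: aggatttgtaaattacctggaataacattc
Clec4e: actggatttcacctgtacttgtatctactg
Clec7a: ttaataccacccttatttccagtgtggact
Clec4a2: ctctttaggaaaggaaagcaaggatagtat
Clec4a3: gccaatggttatacatatgataatactggc
Clec5a: aggaaaggatatggttatatcaacacatct
Clec12a: ccctgtcgtaataaagcttaataaactagg
Clec10a: ctgaaatctgtgatattttgtacagtgtgc
The longest run of bases shared by any pair of these 9 probes was 9 bases. No other probe of the array shared a run of 20 bases with any of them. Matches of these probes to the transcripts of related genes were not checked. Whether a probe lies in coding or untranslated sequence was not analysed here.

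Of the 9 genes, 8 lie on chromosome 6, in the mm9 build that the scanner files use, and Clec10a lies on chromosome 11. Promoter sequence from RefSeq (GRCm38.p6) was found for 7 of the 9, all but Clec4n and Clec10a. The 250 bases before the start of transcription are shown for Clec4d, Clec4e and Clec7a, the receptors with the larger differences below for which promoter sequence was found, and for the DCIR gene Clec4a2, which gave almost no signal. Capitals mark the PU.1 box GAGGAA or its reverse complement. PU.1 is a transcription factor on which myeloid cells depend.
Clec4d (chr6:123261857-123262106, + strand): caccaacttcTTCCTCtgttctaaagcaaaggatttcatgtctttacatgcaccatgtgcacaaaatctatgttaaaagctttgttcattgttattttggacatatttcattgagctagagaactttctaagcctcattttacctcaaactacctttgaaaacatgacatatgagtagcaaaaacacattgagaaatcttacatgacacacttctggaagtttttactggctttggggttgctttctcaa
Clec4e (chr6:123289872-123290121, - strand): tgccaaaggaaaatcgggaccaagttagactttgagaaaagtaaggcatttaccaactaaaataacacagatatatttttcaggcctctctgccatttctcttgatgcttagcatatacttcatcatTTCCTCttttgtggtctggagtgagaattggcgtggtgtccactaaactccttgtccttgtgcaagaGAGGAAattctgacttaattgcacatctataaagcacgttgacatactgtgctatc
Clec7a (chr6:129472780-129473029, - strand): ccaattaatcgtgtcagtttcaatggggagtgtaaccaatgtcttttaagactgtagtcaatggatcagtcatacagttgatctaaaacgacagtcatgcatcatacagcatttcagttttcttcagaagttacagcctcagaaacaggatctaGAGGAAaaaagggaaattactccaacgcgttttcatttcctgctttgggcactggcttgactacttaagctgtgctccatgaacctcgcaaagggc
Clec4a2 (chr6:123122440-123122689, + strand): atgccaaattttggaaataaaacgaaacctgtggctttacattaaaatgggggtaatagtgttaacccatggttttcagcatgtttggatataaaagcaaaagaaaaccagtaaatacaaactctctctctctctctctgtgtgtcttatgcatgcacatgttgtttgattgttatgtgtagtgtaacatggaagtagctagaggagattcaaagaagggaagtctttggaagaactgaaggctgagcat
The PU.1 box, searched on both strands, was in the window of 6 of the 7 genes, and 23.25% of 32851 mouse promoter windows of the same length hold it. Clec4a3 and Clec7a have 2 annotated starts each, and for Clec4a3 the box was in the window of only 1 of them. Clec5a and Clec12a, which like Clec4a2 lay near background, each held the box 2 times. The TATA box letters TATAAA were in 3 of the 7 genes (12.37% of all windows), namely Clec4a2, Clec4e and Clec5a. The C/EBP letters TTGCNNAA were in 2 (9.56%), Clec4e and Clec12a, and the AP-1 letters TGANTCA in 1 (6.75%), Clec12a. An NF-kB motif, GGG and TTTCC with any 2 bases between, was in 0 of the 7 (1.41% of all windows). These matches describe letters in a window and no binding was measured.

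Signals are log2 intensities minus the 75th percentile of the same array, so 0 is the level of a fairly bright probe and 1 unit is a 2-fold step. Levels are compared between mice for a given probe and not between probes. The 75th percentile itself ran from 292.2 to 990.9 intensity units over the 20 arrays, and 53.0% to 68.1% of spots were well above background. Control replicate 2 was the dimmest array on both measures. A probe is called measured where the scanner software marked at least 4 of its 20 readings as well above background, and 36930 of 55681 probes were. The median of all measured probes was at −0.28 (log2) in LFA and −0.25 in NTL against control. With quantile normalization these medians were −0.11 and −0.11 (log2), and the share of all called probes that were higher was 72.8% in LFA in place of 55.8%, and 70.8% in NTL in place of 53.5%. In NTL against NTS this share was 64.9%, with 77.2% under quantile normalization and 51.1% under normexp background correction.

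Of the 9 receptors, 6 were measured: Clec4n, Clec4d, Clec7a, Clec4a3 and Clec10a were well above background on all 20 arrays and Clec4e on 19. They therefore did not enter through the groups in which they were high. A probe is called when its group means differ by at least 1 (log2) with a limma adjusted p under 0.05 over all measured probes. All 6 measured receptors were called higher in LFA than in control, where 2.21% of all probes were called higher and 1.75% lower. All 6 were also called higher in NTL, where 3.64% of all probes were called higher and 3.16% lower. In these 6, every LFA mouse and every NTL mouse lay above every control mouse, which held for 4.57% and 6.37% of all probes. These contrasts were in view when the receptors were chosen, and the counts describe them.

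**Figure D1:**
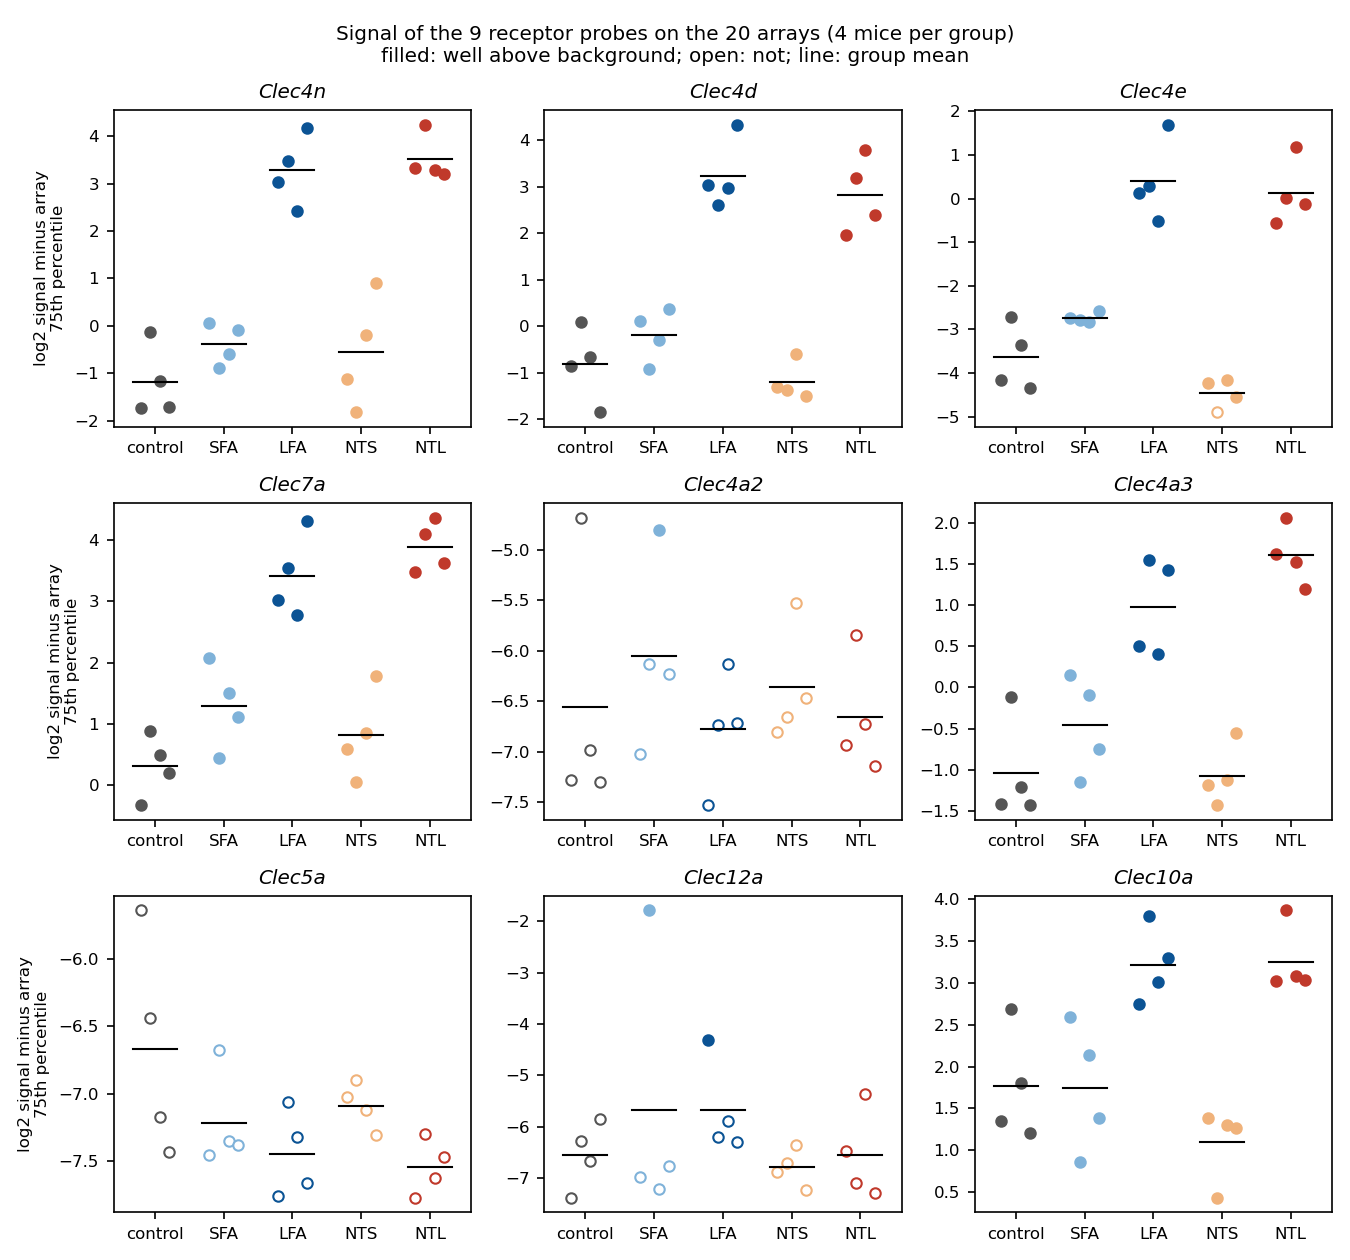
Log2 signal minus the 75th percentile of the array for each of the 9 receptor probes (panels, each with its own axis), with 1 point for each of the 4 mice in the control, SFA, LFA, NTS and NTL groups and a line at the group mean. In Clec4n, Clec4d, Clec4e, Clec7a, Clec4a3 and Clec10a the LFA and NTL mice lie above all control mice, while open symbols, not well above background, make up nearly all points of Clec4a2, Clec5a and Clec12a.

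Among the activating receptors that couple to FcRγ, Clec4n had the largest differences of LFA and NTL from control. Its probe lies at chr6:123196969-123197028 (+ strand, mm9) and starts at base 1171 of the transcript. The log2 signal of Clec4n was −1.72, −0.12, −1.16 and −1.71 in the 4 control mice, 3.03, 3.48, 2.42 and 4.18 in LFA, and 3.33, 4.24, 3.28 and 3.20 in NTL. In SFA it was 0.07, −0.89, −0.59 and −0.08, and in NTS −1.12, −1.82, −0.20 and 0.91. The lowest LFA mouse and the lowest NTL mouse were thus well above the highest mouse of the other 3 groups, which was NTS replicate 4, while control, SFA and NTS overlapped. The group means of Clec4n were −1.18 ± 0.75 (SD, n = 4) in control, 3.28 ± 0.74 in LFA and 3.51 ± 0.49 in NTL. These means differ from control by 4.46 in LFA and 4.69 in NTL (log2, SE 0.52), which is 22.0-fold and 25.9-fold.

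Clec4d (MCL), the partner receptor of Mincle, has its probe at chr6:123224788-123224847 (+ strand), from base 837 of the transcript. The log2 signal of Clec4d was −0.86, 0.10, −0.66 and −1.85 in control, 3.03, 2.60, 2.98 and 4.34 in LFA, and 1.96, 3.19, 3.78 and 2.39 in NTL. It was 0.12, −0.93, −0.29 and 0.37 in SFA and −1.32, −1.38, −0.59 and −1.51 in NTS. The long-fiber mice did not overlap with any other group, and NTS replicates 1, 2 and 4 lay between the lowest control mouse and the rest of the controls. The difference of Clec4d from control was 4.06 in LFA and 3.65 in NTL (log2, SE 0.47), or 16.6-fold and 12.5-fold.

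Clec4e (Mincle), which binds the nuclear protein SAP130 released by dying cells as well as mycobacterial glycolipid, has its probe beside that of Clec4d, at chr6:123232878-123232937 on the − strand, from base 1388 of the transcript. The log2 signal of Clec4e was −4.17, −2.71, −3.35 and −4.33 in control, 0.12, 0.28, −0.52 and 1.69 in LFA, and −0.55, 0.02, 1.18 and −0.13 in NTL. SFA mice were at −2.75, −2.78, −2.83 and −2.57, and NTS mice at −4.23, −4.90, −4.15 and −4.54. The 4 SFA mice spanned a narrow range at the upper edge of the controls, and the NTS mice lay at its lower edge. NTS replicate 2 was the only array on which Clec4e was not well above background. The difference of Clec4e from control was 4.03 in LFA and 3.77 in NTL (log2, SE 0.45), or 16.4-fold and 13.6-fold. With normexp background correction, which lifts dim signals by an offset, these differences were 2.91 and 2.63 (log2).

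Clec7a (Dectin-1), the receptor for the beta-glucan of fungal walls, is read at chr6:129411739-129411798 (− strand), from base 2087 of the transcript. The log2 signal of Clec7a was −0.32, 0.89, 0.49 and 0.21 in control, 3.02, 3.54, 2.77 and 4.31 in LFA, and 3.48, 4.09, 4.36 and 3.63 in NTL. It was 2.07, 0.45, 1.51 and 1.11 in SFA and 0.59, 0.06, 0.86 and 1.78 in NTS. In SFA, 3 of the 4 mice were above all control mice, and in NTS 1 was, but none reached the lowest long-fiber mouse. The difference of Clec7a from control was 3.09 in LFA and 3.58 in NTL (log2, SE 0.42), or 8.54-fold and 11.9-fold.

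Of the DCIR family, Clec4a3 was measured and Clec4a2 was not. The Clec4a3 probe lies at chr6:122919637-122919696 (+ strand), from base 1044 of the transcript. The log2 signal of Clec4a3 was −1.42, −0.12, −1.21 and −1.43 in control, 0.50, 1.55, 0.41 and 1.42 in LFA, and 1.62, 2.06, 1.53 and 1.20 in NTL. In SFA it was 0.15, −1.15, −0.10 and −0.74, and in NTS −1.19, −1.43, −1.13 and −0.55. LFA and NTL did not overlap with control, SFA or NTS, and control replicate 2 stood apart from the other control mice. The difference of Clec4a3 from control was 2.02 in LFA and 2.65 in NTL (log2, SE 0.37), or 4.05-fold and 6.28-fold.

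Clec10a (MGL1), the receptor of the set that lies outside chromosome 6, is read at chr11:69984254-69984313 (+ strand), from base 1416 of the transcript. The log2 signal of Clec10a was 1.35, 2.69, 1.81 and 1.21 in control, 2.75, 3.81, 3.01 and 3.30 in LFA, and 3.02, 3.87, 3.09 and 3.04 in NTL. It was 2.60, 0.86, 2.13 and 1.38 in SFA and 1.39, 0.43, 1.30 and 1.26 in NTS. The lowest LFA mouse was close above control replicate 2, and SFA overlapped with control on both sides. The difference of Clec10a from control was 1.45 in LFA and 1.49 in NTL (log2, SE 0.40), or 2.74-fold and 2.81-fold. The call of Clec10a in LFA was lost when any of 14 of the 20 arrays was left out of the fit: control replicates 1, 3 and 4, SFA replicates 3 and 4, each of the 4 LFA arrays, NTS replicates 1 and 3, and NTL replicates 1, 3 and 4. In NTL it was lost without any of 6 arrays, control replicates 1, 3 and 4 and NTL replicates 1, 2 and 4. The other 5 measured receptors kept their calls in LFA and in NTL whichever array was left out.

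The other 3 receptors were close to background. Clec5a was not well above background on any of the 20 arrays (probe at chr6:40525116-40525175, - strand), Clec4a2 was so on 1 (chr6:123093890-123093949, + strand) and Clec12a on 2 (chr6:129314880-129314939, + strand). For Clec4a2 the array was SFA replicate 3, at −4.80 (log2 signal). For Clec12a the arrays were SFA replicate 2, at −1.79, and LFA replicate 1, at −4.32, while the other 18 arrays lay between −7.39 and −5.36. In all 3, every group overlapped with control, and no fold is given.

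The short fibers gave smaller differences from control in the 6 measured receptors. In SFA these were 0.81 for Clec4n, 0.63 for Clec4d, 0.91 for Clec4e, 0.97 for Clec7a, 0.59 for Clec4a3 and −0.02 for Clec10a (log2, SE 0.37 to 0.52). In NTS they were 0.62, −0.38, −0.81, 0.51, −0.03 and −0.67 in the same order. None of the 6 was called in either group by limma, and 0% of all probes were. An unadjusted limma p under 0.05 was found for 850 of all probes in SFA and 1299 in NTS. Both are fewer than that threshold marks by chance. In no receptor did all 4 SFA mice or all 4 NTS mice lie above every control mouse, which 0.549% and 0.615% of all probes did. All of these differences use the same 4 control arrays.

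The comparison of long with short fibers at the same dose addresses the role of fiber length. For the nanotubes, length and product cannot be told apart, since the NTS sample was a commercial one and the NTL sample came from a university laboratory. In LFA against SFA, 4 of the 6 measured receptors were called higher, where 1.03% of all probes were called higher and 0.133% lower. The differences were 3.65 for Clec4n, 3.42 for Clec4d, 3.13 for Clec4e and 2.12 for Clec7a (log2, SE 0.42 to 0.52). Clec4a3, at 1.43, and Clec10a, at 1.47, were not called. Clec10a was called after quantile normalization. By the test of the study's methods both were called, but that test has a single p over the 5 groups. It therefore does not test LFA against SFA by itself. The call of Clec7a was lost without SFA replicate 2, LFA replicate 2 or LFA replicate 4. Clec4a3 was called without control replicate 2 or LFA replicate 3, and Clec10a without SFA replicate 1. In NTL against NTS all 6 were called higher, where 4.92% of all probes were called higher and 2.65% lower. These differences were 4.07 for Clec4n, 4.03 for Clec4d, 4.58 for Clec4e, 3.07 for Clec7a, 2.68 for Clec4a3 and 2.16 for Clec10a (log2). In each of the 6 receptors the 4 long-fiber mice lay above the 4 short-fiber mice in both materials. The share of all probes with such a gap was not counted, so this is a description only. 

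**Figure D2:**
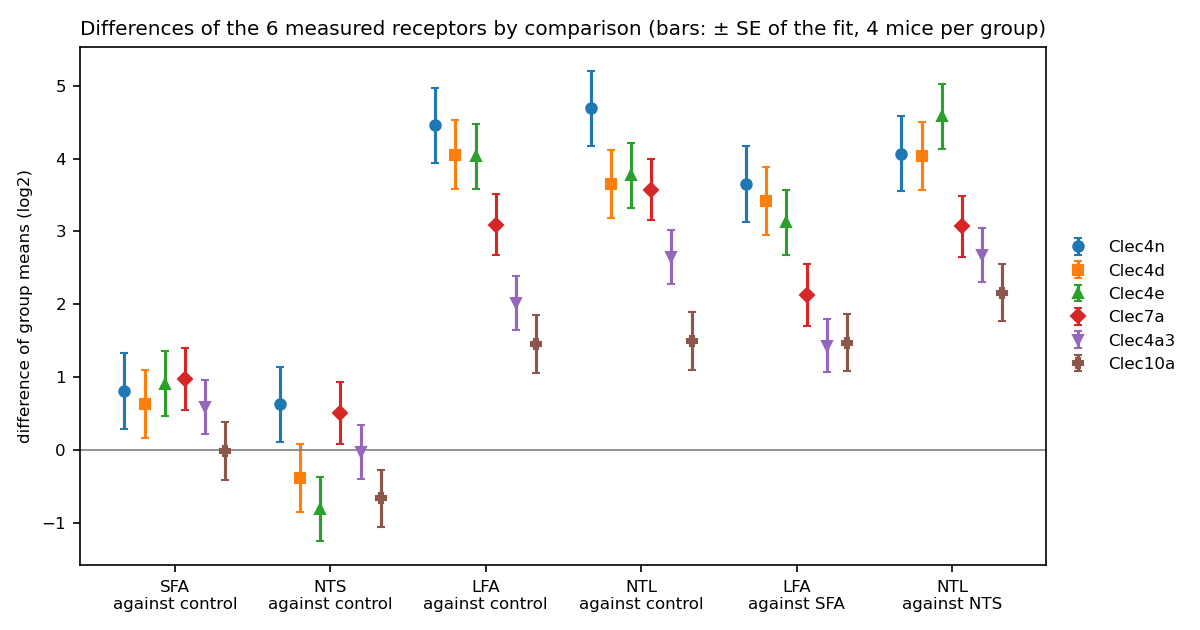
Differences of group means (log2, bars ± SE of the limma fit, 4 mice per group) of the 6 measured receptors in 6 comparisons. The differences from control lie between −0.81 and 0.97 in SFA and NTS and between 1.45 and 4.69 in LFA and NTL, with Clec10a the smallest and Clec4n the largest in both long-fiber groups.

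The arrays lay on 3 slides, over which the groups were unevenly spread. NTL and NTS shared only slide 2, with 1 NTL and 2 NTS arrays, so length and slide are only partly separate there. Slide 1 held 2 LFA arrays and no SFA array. Long and short fibers were not compared within slides. Within slides that held both groups, all 18 differences between LFA and control (6 receptors, 3 slides) were above 0, from 0.73 to 5.51 (log2), and all 12 between NTL and control (2 slides) were above 0, from 1.0 to 4.74. The 12 SFA differences on 2 slides ran from −0.29 to 0.98, and the 12 NTS differences on 2 slides from −1.12 to 2.07. When slide was fitted as a block, Clec10a was no longer called in LFA or NTL against control or in NTL against NTS, and Clec7a was no longer called in LFA against SFA.

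Within a group, the same mouse was often highest or lowest for several of the measured receptors. Control replicate 2, the dimmest array, had the highest signal of the control mice in all 6, and control replicate 4 the lowest in 4. In NTS, replicate 2 was lowest in 5 of the 6, as was SFA replicate 2 among the SFA mice. LFA replicate 4 was highest in 4, and NTL replicates 2 and 3 were highest in 3 each. Other mice were mixed: LFA replicate 2 was highest in 2 and lowest in 1, and NTS replicate 4 highest in 3 and lowest in 1. Over the 20 arrays, Pearson's r between pairs of the 6 receptors ran from 0.876 to 0.979, which includes the shared difference between groups. With each group's mean taken away, r ran from 0.387 for Clec4e and Clec10a to 0.888 for Clec4a3 and Clec10a (15 pairs, median 0.645). These points share their arrays and their scaling, and no p is given.

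Among 25391 other genes, 1 gene was taken for each receptor as the most like it in signal over the 20 arrays. None is named for Clec4a2, Clec5a and Clec12a, whose signals lay near background. Pilra, a paired immunoglobulin-like receptor, was most like Clec4n (r = 0.987, and 0.902 within groups). The chemokine Ccl6 was most like Clec4d (0.971 and 0.667), and the sugar transporter Slc2a6 most like Clec4e (0.972 and 0.640). The lysosomal protease cathepsin S (Ctss) was most like both Clec7a (0.975 and 0.854) and Clec4a3 (0.978 and 0.851). The kinase Btk was most like Clec10a (0.977 and 0.923). Averaged over all 9 receptors, the genes with the highest mean r included St14 (0.575), Gda (0.573), Cotl1 (0.573) and Crlf2 (0.572). These means are low because they include the 3 receptors near background. Averaged over the 6 measured receptors, a choice made after seeing the data, they were Lilrb4 (0.950), Myo1f (0.948), Bcl2a1d (0.948), Slc2a6 (0.948) and Ctss (0.948).

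On chromosome 6, Clec5a lies apart, Clec4a3, Clec4a2, Clec4n, Clec4d and Clec4e lie in the Clec4 cluster, and Clec12a and Clec7a in a second stretch of lectin receptor genes. In the Clec4 cluster, from Clec4a1 to Clec4e, 10 probes read 9 genes. The genes at one end, Clec4n, Clec4d and Clec4e, had the larger differences, between 3.65 and 4.69 (log2). At the other end, Clec4a1 was higher by 1.43 in LFA (limma adjusted p = 0.0396) and by 2.04 in NTL (limma adjusted p = 0.00297). Clec4a4 (DCIR2) was not well above background on any control array and in NTL exceeded control at least 2.02-fold (limma adjusted p = 0.0208). It passed the signal filter only with the help of long-fiber arrays, so this p-value is no independent support. NTS replicate 2, at −3.34 (log2 signal), lay above every NTL mouse, of which the highest was at −3.52. The brighter of the 2 Clec4b1 probes was higher by 1.64 in NTL (limma adjusted p = 0.0179), but the other probe, at 0.91, was not called (limma adjusted p = 0.201).

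In the other stretch, from Clec12a to Olr1, 12 probes read 7 named genes. Clec7a and Olr1, a receptor for oxidized lipoprotein, stood out from the genes between and beside them. Olr1 was at −6.87, −5.86, −6.70 and −7.26 (log2 signal) in control, not well above background on any of these arrays. It was at −1.97, −1.41, −2.53 and −1.63 in LFA and at −1.74, −0.46, −2.22 and −1.36 in NTL. No long-fiber mouse overlapped with control, and its rise over control was at least 9.53-fold in LFA and at least 12.9-fold in NTL, the lower bounds that background allows (limma adjusted p = 1.07e-05 and 3.46e-06). Its probe passed the signal filter only through the long-fiber arrays, so these p-values are no independent support. None of the measured probes of Clec12b, Clec1b, Clec9a and Clec1a was called in LFA or NTL, with differences between −0.23 and 0.96 (log2).

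**Figure D3:**
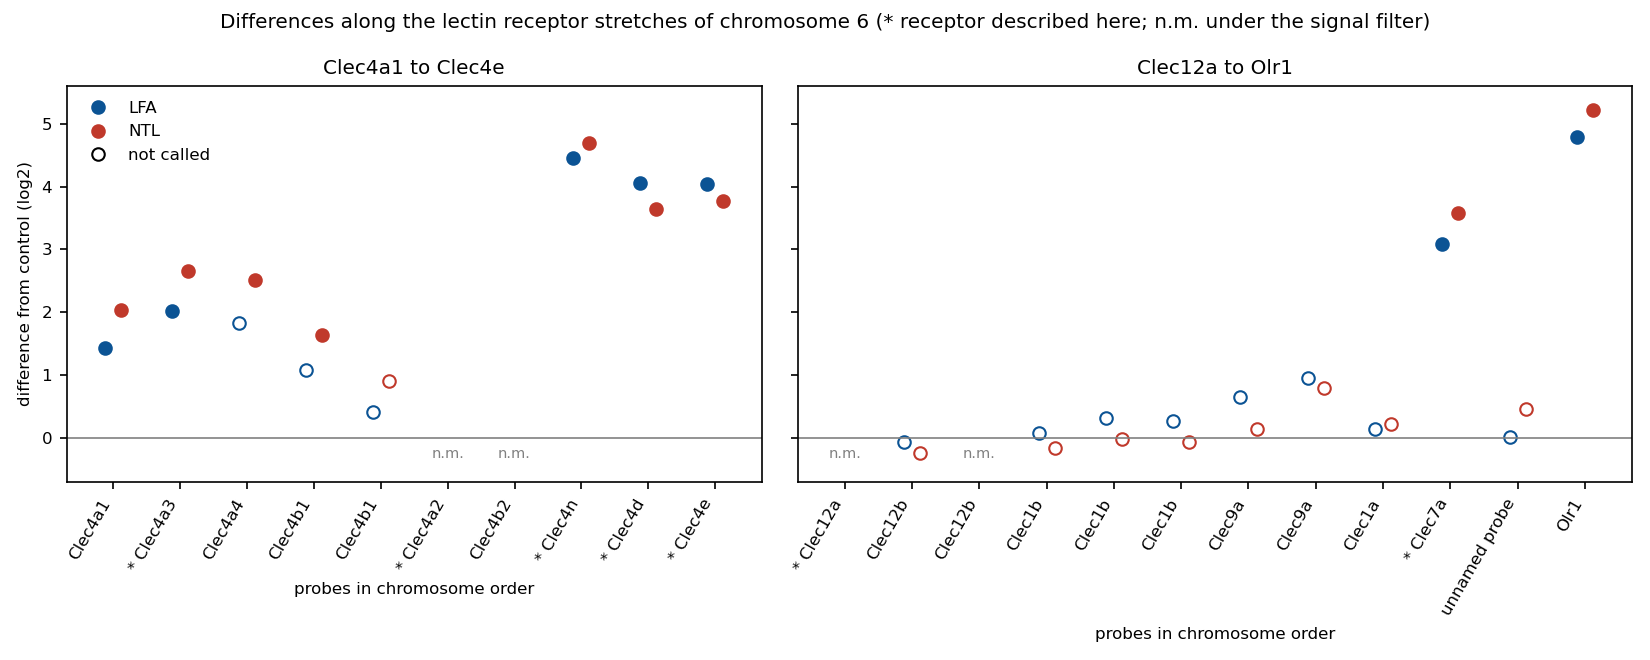
Difference of LFA (blue) and NTL (red) from control (log2) for each probe in chromosome order along the Clec4a1 to Clec4e and Clec12a to Olr1 stretches of chromosome 6. Filled points were called, asterisks mark the receptors described here, and probes under the signal filter are marked n.m. The probes of Clec4n, Clec4d and Clec4e lie between 3.65 and 4.69, and Clec7a and Olr1 stand above the uncalled probes of Clec12b, Clec1b, Clec9a and Clec1a.

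Genes of the receptor pathway were put in 7 lists, chosen with earlier results of these data known. Counts, medians and p-values of these lists, here and along chromosome 6, are thus no independent support for the receptor differences. Beyond the 9 receptors, the lists held 89 genes with a probe, and 81 were measured. Of these, 21 were called higher in LFA and 31 in NTL, with 0 called lower in either. Both comparisons use the same control arrays. The median difference of the 81 was 1.04 in LFA and 1.03 in NTL (log2), beside −0.28 and −0.25 for all probes. Clec4a4, Olr1, Il10, Il12b, Cxcl2 and Csf2 were well above background on at least 4 arrays only when long-fiber arrays were counted. Without these 6, 17 of 75 genes were called in LFA and 25 in NTL, with medians of 0.93 and 0.97 (log2). With them at the lower bounds that background allows, the medians of the 81 were 0.93 and 1.0 (log2), where Il12b, with no bound above 1-fold in LFA, was set to 0. None of the 81 was called in SFA or NTS. In LFA against SFA 6 were called higher, and in NTL against NTS 36, with 0 lower in either. The count of 21 in LFA was 9 when control replicate 1, control replicate 4, LFA replicate 2 or LFA replicate 4 was left out, and 10 when only the LFA and control arrays were fitted. The count of 36 in NTL against NTS was 15 with slide as a block. For the difference between the length effects of nanotubes and asbestos, limma called 0 of the 81 and 0% of all probes. It gave 1278 probes an unadjusted p under 0.05, fewer than that threshold marks by chance. Material and dose cannot be told apart in this comparison.

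Of the other C-type lectin receptors of myeloid and dendritic cells, 6 of 23 measured were called higher in LFA and 8 in NTL, with median differences of 1.08 and 0.80 (log2). Without Olr1 and Clec4a4 these were 5 and 6 of 21, with medians of 1.04 and 0.71. The mannose receptor Mrc1, a marker of tissue macrophages, was higher by 1.92 in LFA and 2.25 in NTL (limma adjusted p = 0.0111 and 0.0018). Cd209e, a relative of DC-SIGN, was higher by 1.98 and 2.81 (limma adjusted p = 0.0385 and 0.00293). The liver receptors Clec4f of Kupffer cells and Clec4g of sinusoidal endothelium were not called, at 2.91 and 2.14 in LFA (log2). Their spread between mice was wide (SE 2.32 and 1.81), and the summed signal of 6 liver markers also varied widely between arrays, as given below.

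Of the proteins with a lectin domain on other cells and in the matrix, 2 of 15 measured were called higher in LFA and 3 in NTL. The B cell coreceptor Cd72 was higher by 2.28 in LFA and 2.71 in NTL (limma adjusted p = 0.0315 and 0.00708). P-selectin (Selp), which captures leukocytes on vessel walls, was higher by 1.57 and 1.55 (limma adjusted p = 0.0039 and 0.00187). Clec11a, a secreted growth factor of bone, was called in NTL only, at 1.29, and its difference in LFA was 0.71 (limma adjusted p = 0.0263 and 0.211).

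Of the ITAM adaptors and proximal signaling genes, 4 of 11 were called higher in LFA and 8 in NTL, and all 11 differences were above 0 in both, with medians of 1.32 and 1.58 (log2). The adaptor DAP12 (Tyrobp) was at 3.14, 4.18, 3.60 and 3.40 (log2 signal) in control, 4.99, 5.38, 5.18 and 6.15 in LFA, and 5.39, 5.74, 5.88 and 5.26 in NTL. The long-fiber mice did not overlap with control, and the difference was 1.85 in LFA and 1.99 in NTL (limma adjusted p = 0.00838 and 0.00235). The FcRγ chain (Fcer1g), which Dectin-2, MCL and Mincle require, was at 2.55, 2.24, 3.38 and 3.22 in control, 3.20, 5.37, 3.47 and 4.86 in LFA, and 4.93, 4.33, 5.32 and 5.09 in NTL. LFA replicates 1 and 3 lay close to the controls, and Fcer1g, at a difference of 1.38, was not called in LFA (limma adjusted p = 0.0784), while in NTL it was higher by 2.07 (limma adjusted p = 0.00856). The exchange factor Vav1 was higher by 1.42 and 1.76 (limma adjusted p = 0.039 and 0.00778). In NTL the kinase gene Prkcd (1.64, limma adjusted p = 0.0102) and the adaptor genes Blnk (1.58, limma adjusted p = 0.0264) and Lat2 (1.93, limma adjusted p = 0.0479) were also higher. Syk itself was at 1.04 in LFA and 1.12 in NTL (log2) and was not called against control (limma adjusted p = 0.109 and 0.0759). It was called in NTL against NTS, at 1.75 (limma adjusted p = 0.00698).

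In the list of the CARD9 complex and NF-kB, 0 of 12 measured genes were called in LFA or NTL, with medians of 0.15 and 0.12 (log2). Card9, the adaptor that gives the complex its name, was well above background on 3 control, 1 LFA and 3 NTL arrays, and its differences were −0.28 and 0.18 (limma adjusted p = 0.817 and 0.911). In NTL against NTS, Nfkb1 and Relb were called higher. Of the 3 phosphatase genes, Ptpn6 (SHP-1), which ITIM receptors recruit, was higher by 1.36 in LFA and 1.32 in NTL (limma adjusted p = 0.029 and 0.02). Inpp5d (SHIP-1) was called in NTL, at 1.40 (limma adjusted p = 0.0091), and its difference in LFA was 1.01 (limma adjusted p = 0.0614). Of the 6 self ligands and membrane partners, 0 were called in LFA or NTL against control. Anxa1 was called higher in NTL against NTS, at 1.47 (log2), and in LFA and NTL against control after quantile normalization. The Mincle ligand gene Sap130 was at 0.34 in LFA and 0.05 in NTL against control (log2).

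Of the cytokine and other target genes, 11 of 14 were measured, and 8 were called higher in LFA and 10 in NTL. Il10, Il12b, Cxcl2 and Csf2 passed the signal filter only through long-fiber arrays, and of the 7 others 5 were called in LFA and 6 in NTL, with medians of 2.17 and 2.12 (log2). Il6 was at −5.79, −5.52, −6.06 and −5.24 (log2 signal) in control, where 1 of 4 arrays was well above background, at −2.49, −1.82, −2.30 and −1.21 in LFA, and at −2.62, −0.29, −1.99 and −1.47 in NTL. The groups did not overlap, and Il6 was higher by 3.70 in LFA and 4.06 in NTL (limma adjusted p = 0.000623 and 0.000131), sizes that rest on control readings mostly near background. Il1b was higher by 3.74 and 3.38 (limma adjusted p = 0.00832 and 0.00792), with LFA replicate 4 at 2.07 against −0.39 to −0.06 in the other LFA mice. Ptgs2, the inducible cyclooxygenase, was higher by 2.58 and 2.53 (limma adjusted p = 0.005 and 0.00255), and the neutrophil chemokine Cxcl1 by 2.17 and 2.12 (limma adjusted p = 0.0243 and 0.0163). Il10, which dampens inflammation, had no control array well above background and exceeded control at least 2.25-fold in LFA and at least 2.81-fold in NTL (limma adjusted p = 0.00556 and 0.000815). Cxcl2 likewise exceeded control at least 1.73-fold and at least 2.34-fold (limma adjusted p = 0.0458 and 0.013), with 3 of 4 LFA arrays well above background. As with Olr1, these p-values of Il10 and Cxcl2 are no independent support.

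**Figure D4:**
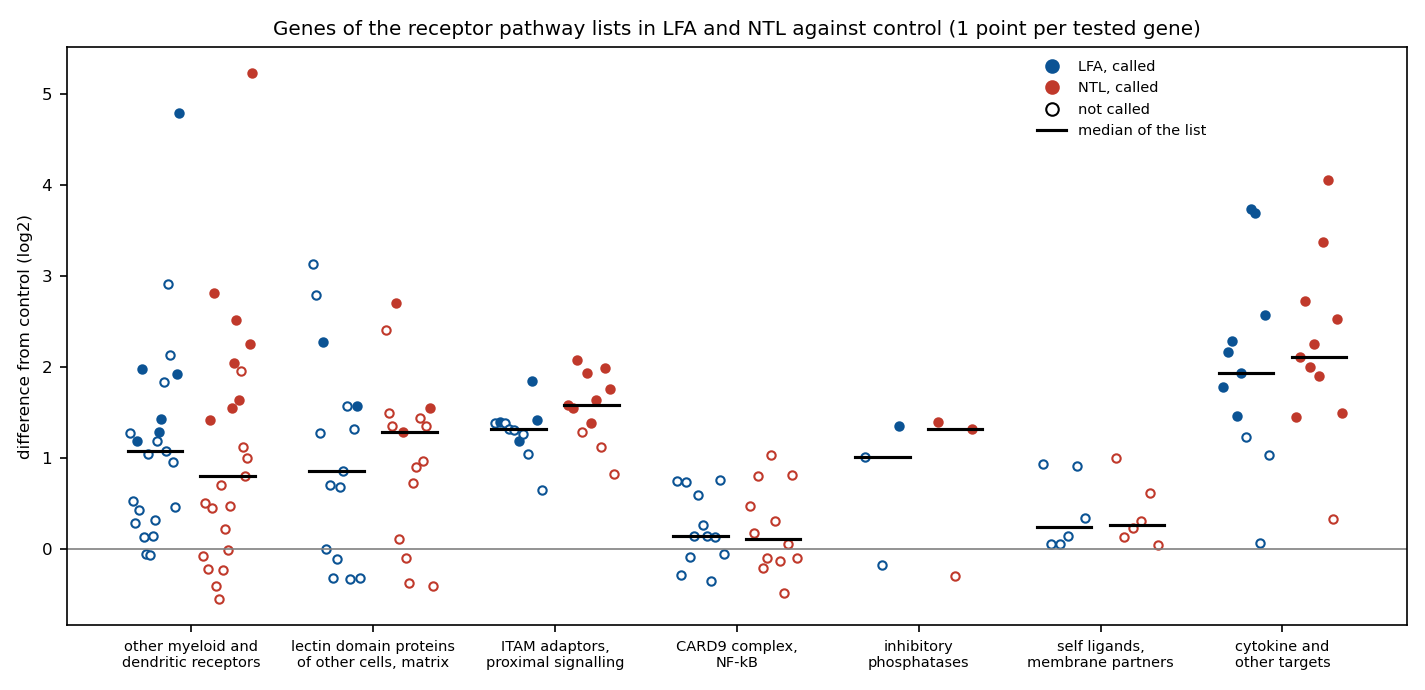
Difference from control (log2) of each measured gene of the 7 pathway lists in LFA (blue) and NTL (red), filled where called, with the median of each list as a line. The cytokine and other targets have medians of 1.93 and 2.12, with 4 genes that passed the filter only through long-fiber arrays, the ITAM adaptors 1.32 and 1.58, and no gene of the CARD9 complex and NF-kB list or of the self ligands is filled.

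Cell type markers, in lists also chosen with earlier results of these data known, were read on the same arrays. The defining markers of skeletal muscle were bright on all of these arrays. Of 8 macrophage markers, 5 (Cd68, Adgre1, Csf1r, Cd14 and Fcgr1) were called higher in both LFA and NTL and 0 lower. Itgam had lower means in LFA (4.72) and NTL (4.92) than in control (5.52, log2 signal), without a call. The summed signal of the 8 macrophage markers, in multiples of the 75th percentile of the array, was 66.3 to 105.5 in control, 66.9 to 132.2 in SFA, 112.5 to 190.3 in LFA, 56.2 to 125.9 in NTS and 158.8 to 216.4 in NTL. Among the control mice the highest sum was that of replicate 2, which also was highest for all 6 receptors. The SFA mouse with the highest sum, replicate 2 (132.2), an array with liver signal as given below, was lowest in 5 of the 6. The sums are linear, so the brightest markers weigh most, and Itgam was the brightest in control (5.52, beside 4.72 for Csf1r, log2 signal). Itgam ran up to 6.54 in SFA and 6.39 in NTS, so the ranks of mice by sum rest largely on it there. In NTS the mouse with the highest sum (replicate 1) was highest in 1 of the 6 receptors. In LFA (replicate 2) it was highest in 2 and in NTL (replicate 3) in 3. Of 3 monocyte markers with a probe, Ccr2 and Cx3cr1 were called higher in both groups. Of 5 measured dendritic cell markers, 0 were called in LFA and 4 (Itgax, Flt3, Ccr7 and Cd83) in NTL. The remaining marker, Zbtb46, had lower means in LFA (−3.30) and NTL (−3.02) than in control (−2.24, log2 signal), without a call. Of 6 neutrophil markers, Cxcr2 was called higher in LFA and 0 in NTL, and 0 of 5 T cell and 0 of 5 B cell markers were called in either. Skeletal muscle markers moved the other way, with a sum of 2118 to 2822 in control, 1455 to 2138 in SFA, 937.5 to 1494 in LFA, 1248 to 2968 in NTS and 892.1 to 1100 in NTL. All 6 had lower means than control in each fiber group, with medians of −0.33 in SFA, −1.0 in LFA, −0.37 in NTS and −1.38 in NTL (log2). Of the 6, Acta1 was called lower in LFA and Myh1 and Tnnt3 in NTL. None of 6 mesothelial markers was called in LFA or NTL. The part of these cell types in the receptor differences was not tested.

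The 6 liver markers summed to between 4.99 and 4196 over the 20 arrays, and the sum exceeded 1000 on 5 of them: SFA replicate 2, LFA replicates 1 and 3, and NTS replicates 3 and 4. All 6 liver markers had higher means in each of the 4 fiber groups than in control, with median differences of 2.14 to 3.51 (log2), and 0 were called. LFA replicates 1 and 3 were also the lower LFA mice for Fcer1g and LFA replicate 3 the lowest for 4 of the 6 receptors, and the part of liver RNA in these values was not tested. Without these 5 arrays, a choice made after seeing the data, only replicates 2 and 4 were left in LFA. Among the LFA mice, replicate 4 was highest in 4 of the 6 receptors, and replicate 2 was highest in 2 and lowest in 1. All 6 measured receptors were still called in LFA and in NTL. The LFA differences, which rest on these mice, were 5.01 for Clec4n, 4.29 for Clec4d and 4.63 for Clec4e (log2). They were 3.61 for Clec7a, 2.53 for Clec4a3 and 1.79 for Clec10a.

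**Figure D5:**
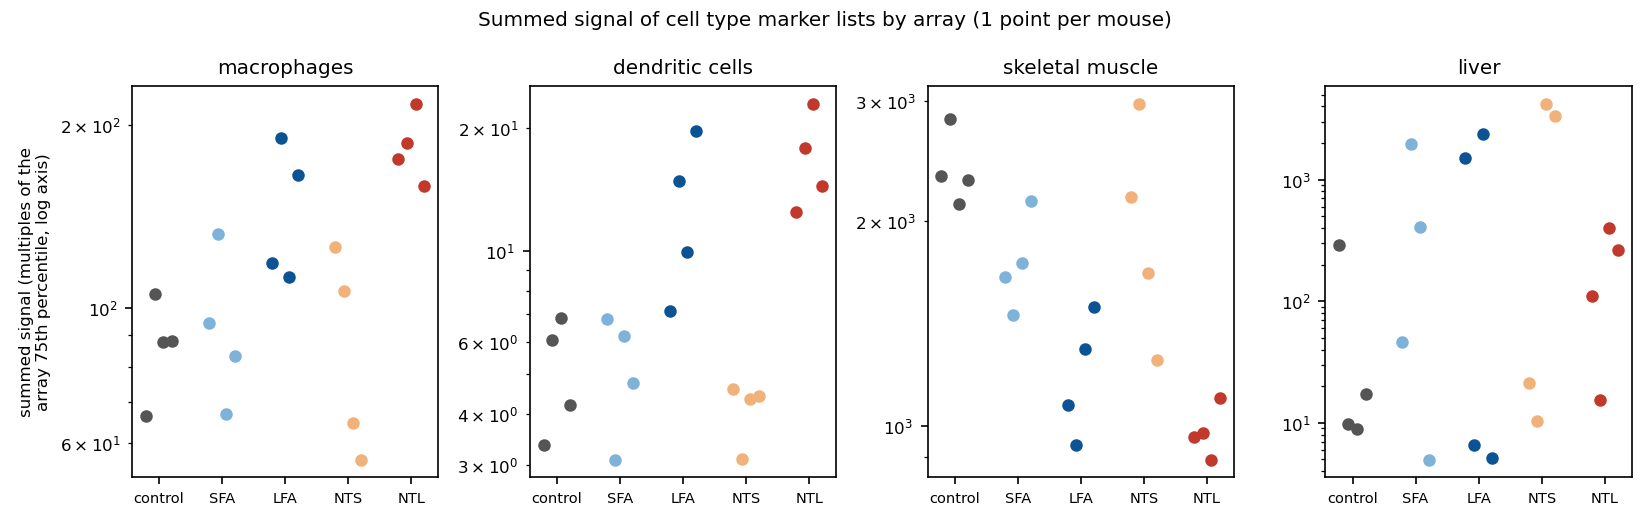
Summed signal of marker lists for macrophages, dendritic cells, skeletal muscle and liver (multiples of the 75th percentile of the array, log axes), 1 point per mouse in each group. Macrophage sums reach 216.4 in NTL against at most 105.5 in control, muscle sums fall to 892.1 in NTL, and liver sums range from 4.99 to 4196, with the 5 sums over 1000 in SFA, LFA and NTS.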

How the data were processed

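RNA of 20 diaphragms was labeled with 1 dye and hybridized to 60-base mouse arrays. The deposited scanner files, made by the authors with Agilent Feature Extraction 10.7.3.1, hold for each spot an intensity already corrected for background by that software. A deposited table of log2 values, normalized by the authors, has 1 value for each group and so gives differences but no test.

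Outlier spots (92 to 204 per array) were dropped, log2 intensities were set relative to the 75th percentile of each array, and spots of a probe were averaged. A model with 1 mean per group was fitted to all 20 arrays with limma 3.58.1 in R 4.3.3 over 36930 probes well above background on at least 4 arrays, and p-values were adjusted by the Benjamini-Hochberg method. The fit was tested on simulated data. Samples were grouped by their labels. The brightest probe stands for a gene, and 161 probes lacked a value on at least 1 array. A lower bound on a fold sets the mean of the brighter group against the lowest signal well above background on each array of the dimmer group. The number of arrays limits the precision.

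The receptors, the pathway lists and the marker lists were chosen with earlier results of these data known. Named were all 9 receptors, up to 6 called genes per pathway list by size, and the most similar genes, of which 1 is not reported here. Clec4a1, Clec12b, Clec1b, Clec9a, Clec1a, Syk, Card9, Sap130, Clec4f, Clec4g, Nfkb1, Relb and Anxa1 were described for their place or role in the pathway. The alternatives were quantile normalization, normexp correction (offset 50), no filter or a filter on all 20 arrays, the mean of all probes of a gene, the authors' table, slide or replicate number as a block, only the groups compared, the methods' test over the 5 groups, leaving out each array, and, added later, leaving out arrays with liver signal.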

Additional observations from a re-analysis of the deposited data

Results flagged for a closer look

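In groups of 4 mice, a mouse was taken as far from the others when its gap to the nearest one, divided by the range of the group, exceeded Dixon's critical value for 4 samples. This was checked in 160 groups (32 genes in 5 groups), chance marks about 1 in 20, and 16 were marked, 7 of them in the receptors. Values are log2 signals.

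Among the receptors, Clec4n in NTL replicate 2 was at 4.24 against 3.20 to 3.33 in the other NTL mice, and Clec10a in the same mouse was at 3.87 against 3.02 to 3.09. In control replicate 2, Clec4a3 was at −0.12 against −1.43 to −1.21, and Clec4a2 at −4.68 against −7.31 to −6.98, none of them well above background. In NTS replicate 2, Clec10a was at 0.43 against 1.26 to 1.39. In SFA replicate 2, Clec12a was at −1.79 against −7.21 to −6.75, the only SFA array on which it was well above background, and Clec5a was at −6.67 against −7.46 to −7.35, none above background.

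Among the pathway genes, Clec4b1 in SFA replicate 4 was at −1.02 against −1.68 to −1.67. Selp was at −2.83 in control replicate 2 against −2.13 to −2.03, at −1.33 in SFA replicate 4 against −1.95 to −1.87, and at −0.61 in NTL replicate 1 against −0.76 to −0.74. Vav1 in NTS replicate 2 was at 0.019 against 1.03 to 1.19, and Prkcd in SFA replicate 2 at −0.30 against 0.94 to 1.16. Il1b in LFA replicate 4 was at 2.07 against −0.39 to −0.06. Cxcl2 in NTS replicate 3 was at −4.90 against −7.07 to −6.75, none well above background, and Cxcl1 in control replicate 2 at −2.04 against −3.01 to −2.89. Their causes were not tested.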

How the results depend on the processing

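The counts of receptors called stayed within 1.5 times under every alternative that gives a count, and 0 were called in SFA or NTS. With each array left out in turn, 5 to 6 receptors were called in LFA and in NTL against control, 3 to 5 in LFA against SFA, and 6 in NTL against NTS. Fitting only the groups compared left 4 in LFA, without Clec10a and Clec4a3, and 5 in NTL. The filter on all 20 arrays removed Clec4e, and no filter removed the call of Clec10a in LFA. Of 184 recomputed differences of the 6 receptors in LFA or NTL, 182 moved by less than 1 SD, the 2 others being those of Clec4e with normexp, and 0 changed sign.

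Pathway counts moved more. Leaving out each array gave 9 to 28 genes in LFA, 23 to 33 in NTL, 0 in SFA and in NTS, 2 to 10 in LFA against SFA, 28 to 38 in NTL against NTS and 0 for the difference of length effects. In LFA against SFA (6 genes), without SFA replicate 2, LFA replicate 2 or LFA replicate 4 the count was 2, and without LFA replicate 3 or NTS replicate 4 it was 10. It was 3 with the filter on all 20 arrays, 1 with only the groups compared, 11 without the arrays with liver signal and 21 by the methods' test. That test has a single p over the 5 groups and does not test a pair of groups by itself. It called 1 gene in SFA and 2 in NTS. In LFA against control only the groups compared gave 10, and in NTL against NTS slide as a block gave 15. The causes were not tested, beyond the smaller numbers of arrays or genes that some settings use. With normexp, 1 pathway gene was called lower in NTL against NTS.

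Equal replicate numbers do not mark the same animal. Over 40 pairs of arrays of different groups with the same number, deviations from the group means correlated from −0.676 to 0.689 (median −0.091). With replicate block, 5 receptors were called in LFA and 6 in NTL, and 14 and 29 pathway genes. The authors' table holds 1 value per group, so it gave no counts.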
